A study of Mus musculus with 6 samples.

Results

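In order to describe open chromatin beside promoters, peaks of accessible DNA that lay close to the start of a protein-coding transcript without containing any transcription start were selected from an ATAC-Seq peak list of Beko cells. Beko is a line of mouse T-cell progenitors with constitutively active Notch signaling. A peak was taken as flanking when it held the start of no annotated transcript (GENCODE vM1, mouse build mm9) and had a coding start within 1 kb of its nearest edge. On the 19 autosomes 960 of 31879 peaks met this rule, which is 3.01% (95% Wilson interval 2.83 to 3.20), and the list over all chromosomes held 32527 peaks. Another 8773 peaks contained a coding start and are referred to as start-covering, 20685 lay more than 1 kb from every start and are referred to as distal, 763 contained only starts of other transcripts, and 698 lay within 1 kb of such starts only. The peaks came from 6 libraries, 3 from cells given DAPT, an inhibitor of γ-secretase (GSI), for 24 h and 3 from cells given the solvent DMSO for the same time. GSI blocks the cleavage that releases the intracellular domain of Notch. All libraries are of 1 established line with active Notch signaling, and no unrelated T-cell line was included. The 6 libraries were merged into 1 list of positions before deposition, so that neither a peak height nor a GSI effect can be given from it, and a spread between replicates does not exist in these data. Counting intervals cover counting error only.

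In ATAC-Seq a transposase inserts adapters into accessible DNA, and peaks mark stretches with many insertions. The promoter of an active gene is usually depleted of nucleosomes around its start, and many mammalian promoters lie in CpG islands, stretches in which the CG dinucleotide has been kept. Open chromatin near but not over a start can be an enhancer, a part of a wider promoter, or the promoter of a transcript whose annotated start lies elsewhere, and positions alone do not tell these apart. As a check of the cell type, 8 T-lineage marker genes were listed, of which 7 were matched to autosomal coding genes. Of these 7, 5 had a coding start inside a peak, namely Cd3e, Cd3g, Cd247, Tcf7 and Lck, whereas Bcl11b had none. None of 7 B-lineage and none of 7 myeloid marker genes had one.

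Most flanking peaks stood beside starts that no peak contained. Sequences are shown for 5 such starts, since the DNA between peak and start differed widely among them. Jag2 encodes a Notch ligand, Usp34 a deubiquitinase, Hivep1 a zinc finger factor, and Bcl11b and Lef1 encode transcription factors of T-cell development. Each line gives the bases between the edge of the upstream peak and the start, read 5′ to 3′ on the strand of the gene in NCBIM37 (mm9), with every CG dinucleotide in capitals. For Usp34 these are the 160 bases next to the start.
Jag2, chr12:114167707-114167830, minus strand: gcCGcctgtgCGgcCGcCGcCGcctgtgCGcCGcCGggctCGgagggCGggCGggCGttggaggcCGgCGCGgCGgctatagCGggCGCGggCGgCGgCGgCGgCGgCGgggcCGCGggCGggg
Usp34, chr11:23206756-23206915, plus strand: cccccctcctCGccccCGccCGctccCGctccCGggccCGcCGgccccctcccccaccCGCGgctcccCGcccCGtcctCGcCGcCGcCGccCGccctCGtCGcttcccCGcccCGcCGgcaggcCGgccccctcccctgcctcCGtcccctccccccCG
Hivep1, chr13:42147271-42147389, plus strand: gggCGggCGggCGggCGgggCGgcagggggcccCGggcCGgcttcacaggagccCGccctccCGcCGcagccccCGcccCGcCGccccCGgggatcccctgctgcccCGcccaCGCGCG
Bcl11b, chr12:109241813-109241950, minus strand: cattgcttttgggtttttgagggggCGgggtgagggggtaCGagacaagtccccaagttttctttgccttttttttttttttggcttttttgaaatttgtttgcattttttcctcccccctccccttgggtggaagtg
Lef1, chr3:130815674-130815714, plus strand: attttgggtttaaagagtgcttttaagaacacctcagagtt

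The GC content of these stretches was 89.5% for Jag2, 88.1% for Usp34 and 89.1% for Hivep1, with 28, 24 and 18 CG dinucleotides. The stretch of Bcl11b had a GC content of 45.7% with 2 CG dinucleotides, and that of Lef1 had 34.1% with none. Starts with a GC-rich gap and starts with an AT-rich gap were thus both found beside CpG-rich peaks, since the peaks of Bcl11b and Lef1 had a GC content of 62.3% and 61.1%.

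Flanking peaks lay on both sides of the starts in near-equal number. Of the 960 peaks, 493 were upstream (51.4%, 95% interval 48.2 to 54.5) and 467 downstream, and upstream peaks were more numerous on 10 of 19 autosomes (exact sign test, two-sided p = 1). For 712 peaks the start lay in no peak, whereas for 248 peaks another peak contained it. The start was covered for 23.7% of the upstream and 28.1% of the downstream peaks. The downstream share was higher on 14 of 19 autosomes, which did not pass the threshold (exact sign test, p = 0.0636). Autosomes of 1 merged list served as units of these tests. They are not biological replicates, and p-values measure only how evenly a difference is spread over the genome. Flanking peaks made up 2.94 ± 0.817% of the peaks of an autosome (SD, n = 19), with a range of 1.34 to 4.37%.

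**Figure D1:**
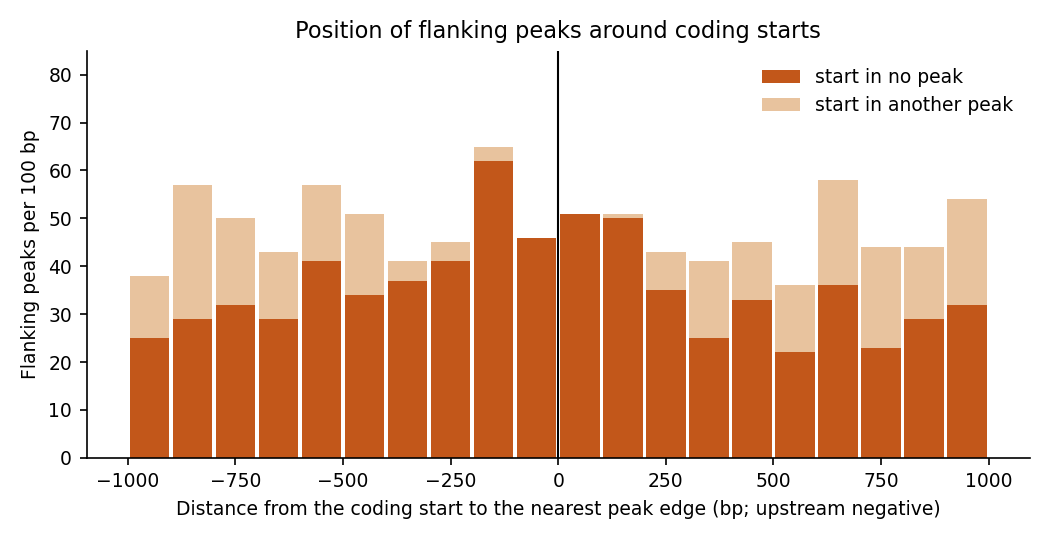
Number of flanking peaks (y axis, per 100 bp) by the distance from the coding start to the nearest peak edge (x axis, bp, upstream negative). Dark bars are the 712 peaks whose start lies in no peak and light bars, stacked on them, the 248 peaks whose start lies in another peak. Dark bars are tallest within 200 bp of the start and light bars beyond it.

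The distance to the start differed between these kinds of peaks by construction, since a covered start needs room for the covering peak. The median distance was 421 bp for uncovered and 679 bp for covered starts. Among uncovered starts, 28.7% of upstream peaks and 30.1% of downstream peaks ended within 200 bp. The peaks with the shortest distance upstream belonged to Pgpep1l (5 bp), Pde6a (5 bp), Atxn7l1 (8 bp), Ubtf (9 bp) and Fosb (11 bp). Ubtf encodes a factor of ribosomal RNA gene transcription and Fosb a subunit of AP-1. Downstream, the peaks of Usp34 and Rhot2 began 1 bp from the start, that of Chchd10 2 bp, and those of Map3k6 and Hr 4 bp. Rhot2 encodes a mitochondrial GTPase and Map3k6 a kinase of the MAP kinase cascade. For these genes the annotated start fell directly beside the peak. For Rhot2 a start of the gene in RefSeq, a second annotation, lay inside the peak. At the other end of the range, the last peaks within the limit belonged to Gm9991, Mettl17 and Ints1 (1000, 999 and 998 bp) and the first beyond it to Cmah, Irf2 and Baz1a (1001, 1002 and 1002 bp).

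Where a peak contained the start, the flanking peak was a separate neighbor. The stretch between both peaks ranged from 15 to 811 bp with a median of 253 bp, and for 90 of 248 pairs it was at most 200 bp. The median width of the covering peak was 789 bp, and it was the wider of the pair in 77.0% of cases.

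Flanking peaks were narrower than start-covering peaks and close in width to distal peaks. The median width was 506.5 bp for flanking, 915 bp for start-covering and 465 bp for distal peaks. This is a description, since a wide peak is more likely to reach a start. The median was 494 bp for upstream and 517 bp for downstream peaks. The autosomal medians differed by -33.6 ± 97.9 bp (upstream minus downstream, mean ± SD, n = 19), which did not pass the threshold (exact sign test, p = 0.359). The widest flanking peaks were found at Cdk6 (1886 bp), a cell-cycle kinase gene, Foxn3 (1724 bp), Igf1r (1710 bp), the gene of a growth factor receptor, Prr12 (1674 bp) and Irf2bp2 (1570 bp). Of these, only the start of Cdk6 was contained in another peak, and all 5 peaks were CpG-rich. All 5 starts rested on automatic annotation alone. In RefSeq a start of the gene lay inside the flanking peaks of Igf1r, Prr12 and Irf2bp2.

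The 960 peaks were tied to 898 genes. For 840 genes there was 1 flanking peak, for 54 genes there were 2, and for 4 genes, Dnmt3a, Ptch1, Rab44 and Ubtf, there were 3. Dnmt3a encodes a DNA methyltransferase and Ptch1 the Hedgehog receptor. The peaks of Dnmt3a and Ubtf flanked several alternative starts, whereas those of Rab44 all flanked the same start. A further coding start of another gene was in reach for 26 peaks. Downstream peaks lay mostly inside the gene they were tied to, with the center of 305 of 467 (65.3%) in the first intron, of 66 (14.1%) in the first exon of 48 in a later intron and of 36 in a later exon. Upstream peaks lay outside annotated transcripts in 300 of 493 cases (60.9%), in another transcript of the same gene in 139 (28.2%) and in another gene in the other 54.

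In order to see which genes of Notch signaling and of the T-cell lineage had such peaks, 4 gene lists were examined. Among all 21275 autosomal coding genes, 898 (4.22%) had a flanking peak, which is the background for the following counts. A flanking peak was found for 6 of 42 Notch-pathway genes (14.3%), 11 of 44 genes of T-lineage transcription factors (25%), 3 of 39 genes of T-cell receptor and signaling proteins (7.69%) and 1 of the 9 example loci of RBPJ binding picked by the study (11.1%). A coding start was inside a peak for 33 of 42, 37 of 44, 33 of 39 and 8 of 9 genes of these lists, in comparison with 44.0% of all coding genes. The background thus holds more genes without a start in a peak, and the shares with a flanking peak were not adjusted for this. No test was made for the lists, which were chosen with earlier results of these data known.

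**Figure D2:**
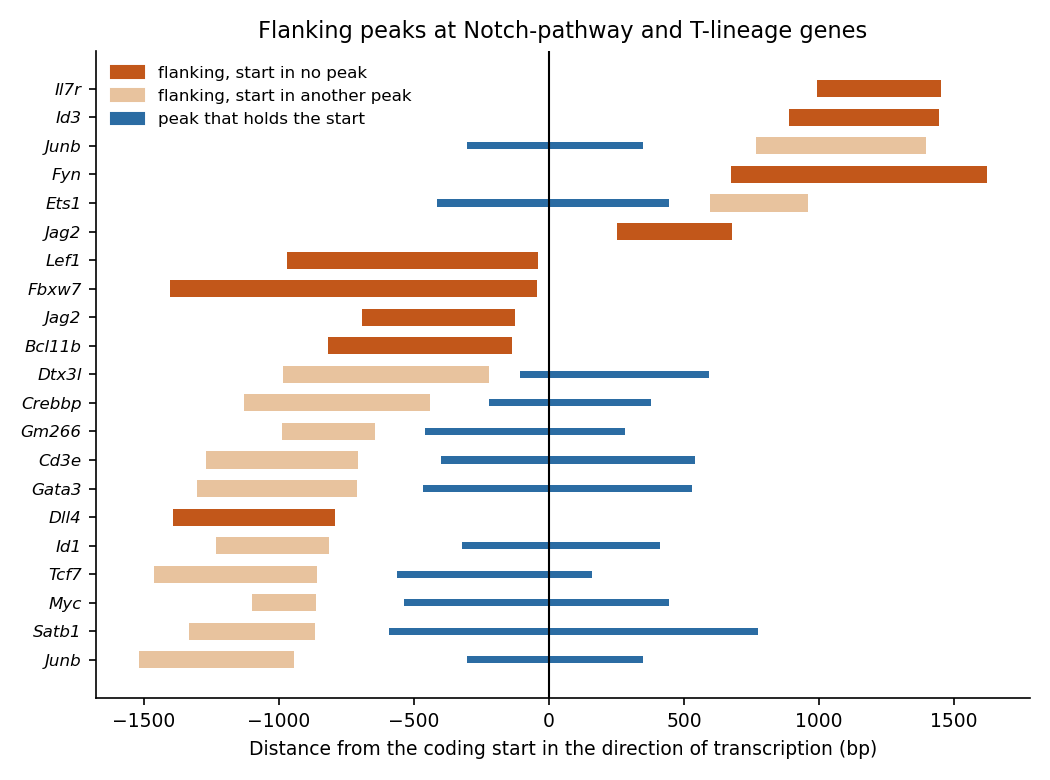
Flanking peaks of genes on the 4 lists, drawn to scale from the coding start at 0 (x axis, bp in the direction of transcription, upstream negative), 1 row per peak. Dark bars are flanking peaks whose start lies in no peak, light bars those whose start lies in another peak, and thin blue bars that other peak. Fbxw7, Lef1, Jag2 and Bcl11b have dark upstream bars within 150 bp of the start and no blue bar (not every gene of the lists with such a peak is drawn).

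The Notch ligand genes Jag2 and Dll4 had flanking peaks at starts that no peak contained. At Jag2 a peak of 567 bp ended 125 bp upstream of the start and another of 429 bp began 250 bp downstream. At Dll4 the peak of 600 bp lay 792 bp upstream. The third such gene was Fbxw7, which encodes the substrate receptor of a ubiquitin ligase that targets the Notch intracellular domain, with a peak of 1357 bp ending 46 bp upstream. The peaks of Dll4 and Fbxw7 were centered in an intron of another gene, and the start of Jag2 rested on automatic annotation alone. For these 3 genes no annotated coding start was inside a peak. In contrast, the starts of Myc, Crebbp and Dtx3l were each contained in another peak, and their flanking peaks lay 862, 439 and 221 bp upstream. Myc is a Notch target gene in T-cell leukemia, Crebbp encodes an acetyltransferase and coactivator, and Dtx3l belongs to the Deltex family. The peak of Dtx3l was centered in an intron of another gene, and the start of Crebbp rested on automatic annotation alone.

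Among the transcription factor genes, the upstream peaks of Lef1 (930 bp wide, 42 bp from the start) and Bcl11b (679 bp wide, 139 bp from the start) and the downstream peak of Id3 (555 bp wide, 888 bp from the start) belonged to genes with no coding start inside a peak. Id3 encodes an inhibitor of E proteins. The downstream peak of Nfatc1, a gene of the NFAT family, lay 365 bp from an uncovered start, while another start of the gene was inside a peak. At Gata3, Id1, Tcf7 and Satb1 the start was inside a peak and the flanking peak lay 713 to 866 bp upstream. At Ets1 the start was inside a peak too and the flanking peak lay 596 bp downstream. The flanking peak of Tcf7 was centered in another gene, and those of Gata3, Satb1 and Lef1 in another transcript of the same gene. Junb, an AP-1 gene, had a flanking peak on each side of its covered start, 946 bp upstream and 767 bp downstream. Of the genes of T-cell receptor and signaling proteins, Cd3e, a receptor subunit, had a peak 707 bp upstream of its covered start. The peaks of Fyn, a Src-family kinase, and Il7r, the interleukin-7 receptor, lay 673 and 991 bp downstream of uncovered starts. Another start of Fyn was inside a peak, and none of Il7r. Automatic annotation alone gave the starts of Nfatc1, Tcf7, Ets1, Junb and Il7r.

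The base composition of flanking peaks lay between that of start-covering and distal peaks. The mean GC content was 55.8% for flanking, 61.9% for start-covering and 50.2% for distal peaks, and the observed to expected CpG ratio was 0.429, 0.732 and 0.243, respectively. A peak was taken as CpG-rich when this ratio reached 0.6 and its GC content reached 50%. By this definition 246 of 960 flanking peaks were CpG-rich (25.6%, 95% interval 23.0 to 28.5), in comparison with 81.5% of start-covering and 2.89% of distal peaks. The difference had the same direction on 19 of 19 autosomes for each measure and against each class (exact sign test, adjusted p = 7.63e-06 over 12 tests). Per autosome, the CpG-rich share was 54.8 ± 11.04 percentage points (mean ± SD, n = 19) below that of start-covering peaks and 24.2 ± 12.4 points above that of distal peaks. Flanking peaks were also the class in which autosomes differed most, with a SD of 12.4 points for the CpG-rich share in comparison with 3.75 and 0.650 points, and they had the fewest peaks per autosome.

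**Figure D3:**
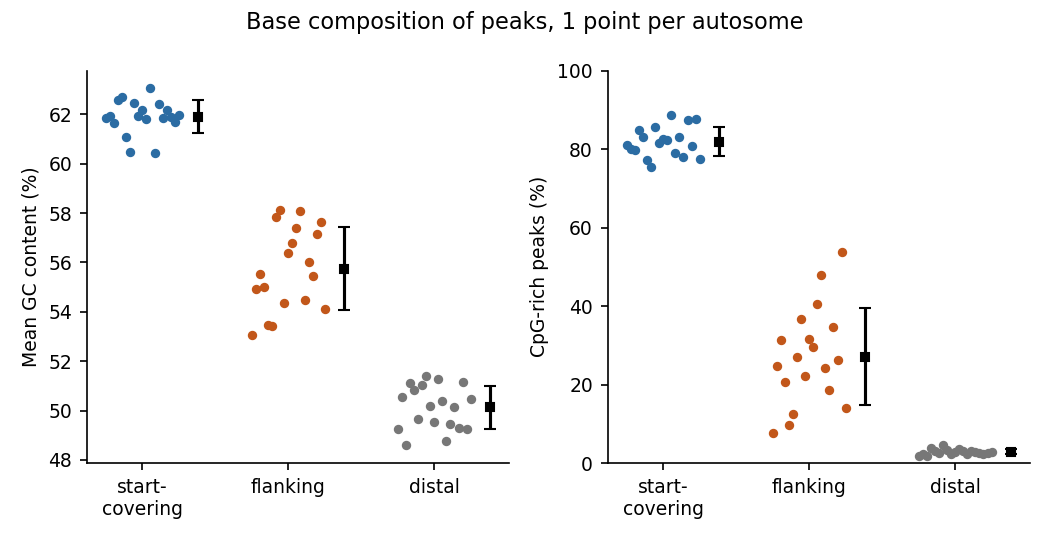
Mean GC content (left, y axis in %, not starting at 0) and share of CpG-rich peaks (right, y axis in %) of start-covering, flanking and distal peaks, 1 point per autosome. Black squares with bars are the mean and SD over 19 autosomes. In both panels the flanking peaks lie between the other two classes on every autosome.

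The sides of the start did not differ in composition past the threshold of the sign test. Upstream peaks had a mean GC content of 55.05% and downstream peaks of 56.6%, and the difference of -1.62 ± 2.88 percentage points (mean ± SD, n = 19), with 14 of 19 autosomes higher downstream, did not pass the exact sign test (adjusted p = 0.0954). With a permutation test over autosomes the adjusted p was 0.0317. Peaks beside uncovered starts had a higher GC content than peaks beside covered starts by 1.73 ± 2.74 points, with the same direction on 15 of 19 autosomes (exact sign test, adjusted p = 0.0329). This difference lost the threshold with a distance limit of 500 bp, with joined peaks and with peaks of at least 500 bp. Both groups also differ by construction in distance to the start (median 421 bp for uncovered and 679 bp for covered). The part of distance in the GC difference was not tested.

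CpG-rich and CpG-poor flanking peaks also differed in place and width. The 246 CpG-rich peaks had a median distance of 278 bp from the start and a median width of 639.5 bp, in comparison with 570 bp and 471.5 bp for the 714 CpG-poor peaks. Their shares of upstream peaks were 46.3% (95% interval 40.2 to 52.6) and 53.1% (49.4 to 56.7).

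Next, the central 200 bp of each peak were searched for 8 motif cores on both strands. Common in promoters are GGGCGG of SP factors, CCGGAA of ETS factors of the GABPA type, CCAAT of NF-Y and TGCGCA of NRF1. CAGCTG is bound by E proteins, TGTGGT by RUNX factors, AGGAAG by ETS factors of lymphoid cells, and TGGGAA is the core of the RBPJ motif. A match is a description of the sequence and not evidence of binding. The central sequences of 4 flanking peaks are shown on the strand of the gene in NCBIM37 (mm9), because they belong to listed genes and show how differently the cores were combined. Capitals mark a match to any of the cores on either strand.
Dll4, chr2:119150329-119150528, plus strand: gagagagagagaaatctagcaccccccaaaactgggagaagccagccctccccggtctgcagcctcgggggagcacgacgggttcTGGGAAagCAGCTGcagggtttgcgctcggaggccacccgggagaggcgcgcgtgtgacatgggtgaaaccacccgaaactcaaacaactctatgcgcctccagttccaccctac
Gata3, chr2:9801135-9801334, minus strand: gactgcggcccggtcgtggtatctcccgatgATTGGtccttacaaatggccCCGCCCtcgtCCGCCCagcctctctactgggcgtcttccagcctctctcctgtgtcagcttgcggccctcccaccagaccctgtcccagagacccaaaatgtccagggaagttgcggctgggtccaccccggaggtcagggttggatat
Tcf7, chr11:52097743-52097942, minus strand: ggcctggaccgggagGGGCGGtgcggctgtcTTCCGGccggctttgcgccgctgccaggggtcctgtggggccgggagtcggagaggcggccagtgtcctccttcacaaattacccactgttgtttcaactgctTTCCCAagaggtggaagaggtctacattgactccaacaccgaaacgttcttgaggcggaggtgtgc
Gm266, chr12:112724750-112724949, minus strand: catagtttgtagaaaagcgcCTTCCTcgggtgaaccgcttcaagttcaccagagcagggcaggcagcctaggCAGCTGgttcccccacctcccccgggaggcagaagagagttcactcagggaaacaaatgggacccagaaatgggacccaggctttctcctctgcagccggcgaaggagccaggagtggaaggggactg

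The peak of Dll4 held a TGGGAA and a CAGCTG core with 2 bases between them. The peaks of Gata3 and Tcf7 held GGGCGG cores, together with CCAAT in Gata3 and with CCGGAA and TGGGAA in Tcf7. The peak of Gm266, an example locus of the study, held CAGCTG and AGGAAG. Its covered start lay 645 bp away and rested on automatic annotation alone. This peak lay upstream of that start. The study labeled its primers for RBPJ binding at Gm266 with a downstream position far beyond the 1 kb limit, which is another site.

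In the central 200 bp, 3 of the 4 cores common in promoters were less frequent in flanking than in start-covering peaks, whereas the cores of E proteins, RUNX and lymphoid ETS factors were more frequent. GGGCGG occurred in 24.7% of flanking, 56.6% of start-covering and 9.18% of distal peaks, in comparison with 23.3% of all autosomal peaks. CCGGAA occurred in 7.50%, 21.9% and 4.53%, and TGCGCA in 3.44%, 9.30% and 2.17%. In the opposite direction, CAGCTG occurred in 20.3% of flanking, 11.2% of start-covering and 25.7% of distal peaks, TGTGGT in 16.1%, 7.24% and 25.6%, and AGGAAG in 29.5%, 21.7% and 37.5%. All 6 differences from start-covering peaks passed the exact sign test over autosomes, with adjusted p from 3.05e-05 to 0.0157 over 32 tests. The GGGCGG share was lower by 32.7 ± 5.94 percentage points (mean ± SD, n = 19; 19 of 19 autosomes) and the CAGCTG share higher by 9.92 ± 5.00 points (19 of 19). These differences depend on the window. When the whole peak was searched, the difference was -0.02 points for CAGCTG and -6.47 points for AGGAAG, and neither it nor that of TGTGGT (2.21 points) passed. Start-covering peaks are wider and thus hold more sequence.

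**Figure D4:**
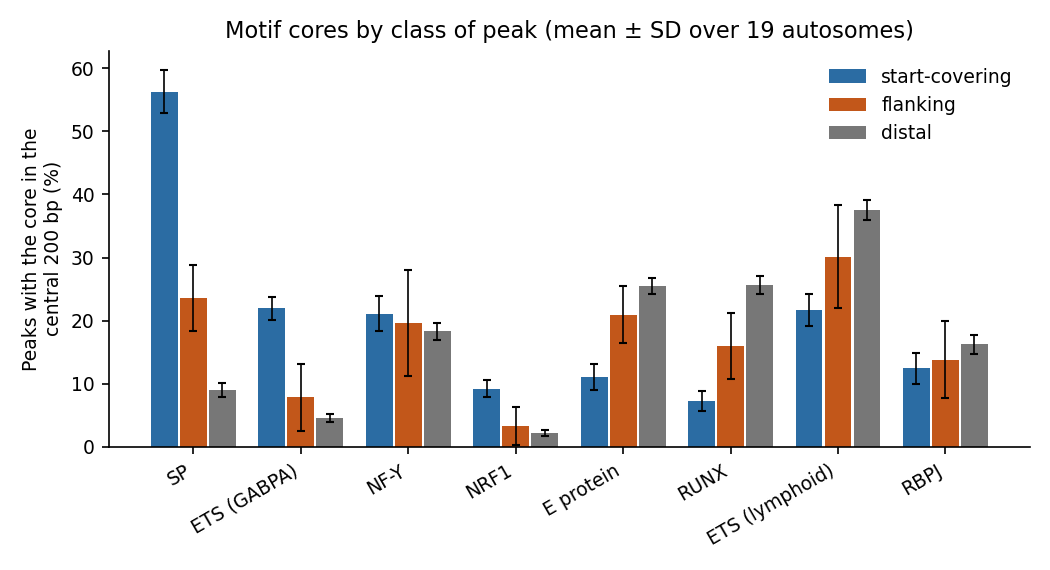
Share of peaks with a motif core in the central 200 bp (y axis in %), by the factors that bind it (x axis), for start-covering, flanking and distal peaks. Bars are means and whiskers SDs over 19 autosomes. The flanking bar lies between the other two for all 8 cores, with whiskers that overlap those of a neighboring class for several cores.

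In comparison with distal peaks, GGGCGG was higher by 14.6 ± 5.34 points (19 of 19 autosomes, exact sign test, adjusted p = 3.05e-05), TGTGGT was lower by 9.61 ± 5.93 points (18 of 19, adjusted p = 0.000407) and AGGAAG was lower by 7.37 ± 7.94 points (17 of 19, adjusted p = 0.00291). The AGGAAG difference was -2.33 points when the whole peak was searched (exact sign test, adjusted p = 0.768). Within CpG-poor peaks it was -2.77 points (adjusted p = 0.0439 in the exact sign test and 0.516 in the permutation test). For CCGGAA and CAGCTG the sign test gave an adjusted p of 0.0559 each, and the permutation test 0.0229 and 0.00502. For TGCGCA the difference was 1.11 ± 3.09 points (adjusted p = 0.797 in the exact sign test). With the whole peak searched, CCGGAA was higher by 9.59 points and TGCGCA by 4.85 points (exact sign test, adjusted p = 0.00291 and 0.0157). The CAGCTG difference was then -3.33 points (exact sign test, adjusted p = 0.411). CCAAT was found in 18.8% of flanking, 21.6% of start-covering and 18.3% of distal peaks, and TGGGAA in 15.1%, 12.3% and 16.4%, and neither passed the sign test in any comparison of the central 200 bp. When the whole peak was searched, the differences from start-covering peaks were -14.6 points for CCAAT and -12.3 points for TGGGAA, and both passed (each on 18 of 19 autosomes, exact sign test, adjusted p = 0.000349). The sides of the start did not differ past the threshold of the sign test for any core. CCAAT occurred in 21.9% of upstream and 15.4% of downstream peaks (14 of 19 autosomes, adjusted p = 0.170 in the exact sign test and 0.0441 in the permutation test), and TGGGAA in 17.6% and 12.4% (12 of 19, adjusted p = 0.547 in the exact sign test).

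Within the flanking peaks, 4 of the 8 cores differed between the CpG classes past the threshold. GGGCGG, which itself contains a CG dinucleotide, occurred in 55.3% of CpG-rich and 14.1% of CpG-poor peaks. CAGCTG occurred in 9.76% and 23.9%, TGTGGT in 7.32% and 19.2% and AGGAAG in 20.3% and 32.6% (exact sign test, adjusted p from 3.05e-05 to 0.0384 over 8 tests). The other 4 cores did not pass (adjusted p from 0.234 to 1, exact sign test). In CpG-rich flanking peaks, the shares of the 4 cores that passed lay within 2 percentage points of those of all start-covering peaks. By contrast, CCGGAA occurred in 9.76% of the former and 21.9% of the latter. The 8773 start-covering peaks include 1621 CpG-poor ones, of which 32.1% held the core of SP factors. CpG-rich start-covering peaks were not compared on their own, so a likeness between CpG-rich peaks of both classes was not tested. When CpG-poor peaks of each class were compared, the share of peaks with GGGCGG was still lower than in start-covering peaks, as was that with CCGGAA and that with TGCGCA, while that with CAGCTG was still higher (adjusted p from 0.00122 to 0.0439 over 16 tests, exact sign test). The differences of TGTGGT (4.87 ± 7.23 points) and AGGAAG (3.05 ± 15.5 points) did not pass there. The CpG-poor peaks of both classes still differed in composition. Their CpG ratio was 0.298 for flanking and 0.412 for start-covering peaks, and their mean GC content 52.3% and 55.1%. CCGGAA and TGCGCA contain a CG dinucleotide, as does GGGCGG. The part of CpG content in the differences of these cores was not tested.

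The starts themselves were examined next. The 712 peaks beside uncovered starts flanked 682 different starts, which were compared with 17796 coding starts inside peaks. In the 300 bp around the start, the flanked starts had a mean GC content of 57.4% in comparison with 65.6%, and 28.0% of them (191 of 682) were CpG-rich in comparison with 85.01%. Both differences had the same direction on 19 of 19 autosomes (exact sign test, adjusted p = 6.68e-06 over 7 tests). The remaining 25491 coding starts, neither inside a peak nor flanked in this way, had a GC content of 53.6% and were CpG-rich in 23.8% of cases. A TATAAA between 40 and 20 bp upstream was found at 1.91% of flanked, 0.556% of inside and 2.19% of remaining starts. It was more frequent at flanked than at inside starts on 8 of 19 autosomes only (exact sign test, adjusted p = 0.648; permutation test, adjusted p = 0.0498), with 13 flanked starts in all.

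Flanked starts differed from starts inside peaks in the annotation as well. They rested on automatic annotation alone in 41.8% of cases, in comparison with 28.1% of starts inside peaks (18 of 19 autosomes, exact sign test, adjusted p = 0.000107) and 36.0% of the remaining starts. Another coding start of the same gene was inside a peak for 29.6% of them, for 72.8% of starts inside peaks and for 21.4% of the remaining starts. This is a description, since a flanking peak by its definition holds no start, while alternative starts in the same peak count for a start inside it. They were the only coding start of the gene in 37.1% of cases, in comparison with 20.6% of starts inside peaks and 29.3% of the remaining starts. The flanked start was the most 5′ start of its gene in 58.8%, in comparison with 49.1% of starts inside peaks and 48.0% of the remaining ones (14 of 19, adjusted p = 0.0742 in the exact sign test and 0.00722 in the permutation test). An only coding start is by definition the most 5′ one, so this share also counts the only starts, which were more frequent among flanked starts. Genes with several coding starts were not compared on their own. To see whether a second annotation placed the start elsewhere, RefSeq promoter sequences (GRCm38.p6) were placed on mm9 by exact match, which succeeded once for 18824 of 18963. A placed start of the gene was available for 467 of the 712 peaks. It lay inside the flanking peak for 39 (8.35%) and within 50 bp of the GENCODE start for 219 (46.9%). The RefSeq table holds 1 start a gene and thus covers alternative starts only in part.

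The share of flanked starts varied with GC content, in a way that depends on the starts it is taken of. Among coding starts that were either inside a peak or flanked, the flanked share was 31.4% below 45% GC (95% Wilson interval 25.3 to 38.3), 13.6% between 45 and 55%, 3.25% between 55 and 65% and 1.16% between 65 and 75% (0.943 to 1.43). It was 2.35% between 75 and 80% (1.75 to 3.14) and 4.75% at 80% and above (3.24 to 6.92; 25 starts flanked and 501 inside). Of all coding starts, those without any near peak included, 1.03% were flanked below 45% GC, 2.34% between 45 and 55%, 1.64% between 55 and 65%, 0.812% between 65 and 75%, 1.62% between 75 and 80% and 3.01% at 80% and above. On this scale the share was not raised below 45%, where 96.7% of starts had neither a peak nor a flanking peak. Alternative starts of a gene can lie in the same peak and are not independent, so the intervals are too narrow and the shares are given without a test.

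The stretch between the peak and an uncovered start was more GC-rich than the DNA at the far side of the peak. It was compared with a stretch of equal length beyond the far edge. This was done for the 623 peaks with at least 50 bp between peak and start and no other peak in either stretch. By the rule the first stretch always adjoins a coding start and the second lies farther from that start. Equal stretches beside covered starts or beside starts without a peak were not compared. The difference thus cannot be assigned to flanking peaks in particular. The mean GC content was 55.7% toward the start and 49.4% at the far side, and it was higher toward the start on 19 of 19 autosomes, by 6.63 ± 3.37 percentage points (mean ± SD, n = 19; exact sign test, adjusted p = 5.72e-06 over 6 tests). For upstream peaks the difference was 6.49 ± 6.69 points (17 of 19) and for downstream peaks 5.84 ± 3.79 points (19 of 19). A GC content of at least 75%, as in the stretches of Jag2, Usp34 and Hivep1 printed above, was found toward the start for 53 of 623 peaks (8.51%) and at the far side for 2 (0.321%). Of the 53 peaks 47 were CpG-rich, which is 32.0% of the 147 CpG-rich peaks with such a stretch.

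**Figure D5:**
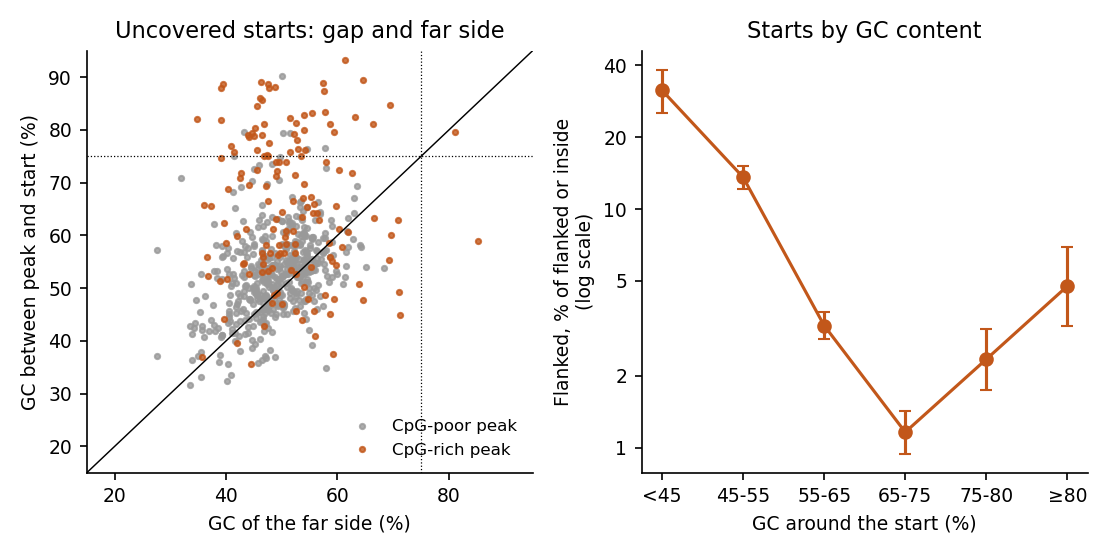
Left, GC content between peak and uncovered start (y axis, %) against that of an equal stretch beyond the far edge of the peak (x axis, %), 1 point per peak (n = 623), with the line of equality and dotted lines at 75%. Right, flanked starts in % of starts inside a peak or flanked (y axis, log scale) by GC content of the 300 bp around the start (x axis), with 95% Wilson intervals. Points of CpG-rich peaks reach above 75% on the left, and on the right the share is lowest, 1.16%, between 65 and 75% GC.

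At 21 of the 682 uncovered starts a flanking peak lay on each side. The stretch between both peaks was 139 to 1578 bp long with a median of 724 bp. Its GC content ranged from 38.3 to 88.2% with a median of 56.7%, and at 7 starts it was at least 75%. These were Usp34 (88.2%), Samd1 (83.1%), Jag2 (82.6%), Hivep1 (82.3%), Usp7 (81.9%), Ankrd11 (77.6%) and Ptch1 (75.1%). At Usp34 both peaks were 161 bp apart, at Hivep1 248 bp and at Jag2 374 bp. By contrast, the shortest stretch, 139 bp at Nab2, which encodes a corepressor of EGR factors, had a GC content of 43.2%, and that of 227 bp at Atxn7l1 had 38.3%. The 10 closest pairs further included Mrgpre, Stambpl1, Klf3, which encodes a Krüppel-like repressor, and Rab44, with stretches of 270 to 413 bp at a GC content of 39.3 to 56.7%. The GC-rich stretches thus lay at some, and not most, of these starts. The list holds no read counts, and the part of GC content in the missing coverage of these starts was not tested.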

How the data were processed

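ATAC-Seq libraries of Beko cells (3 GSI, 3 DMSO) were grouped by their labels. According to the methods, trimmed reads were aligned by the authors to mm9 (HISAT2 2.2.1, 1 alignment each) and duplicates were discarded with Picard. MACS2 was run without an input, MSPC combined the peaks, and those in at least 3 of 6 libraries and off the blacklist were retained. The deposited values are peak positions in bp in 1 list, with the score 0 for every peak. A shift of read ends for the transposase is not given in the sources used here. Keeping peaks of 3 libraries retains peaks of 1 treatment alone. Depth per library was not used here.

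Starts came from GENCODE vM1 on NCBIM37 (mm9) and distances are counted from the start to the nearest peak base. Classes of peaks were compared over 19 autosomes by a two-sided exact sign test with Benjamini-Hochberg adjustment within each family of tests at a threshold of 0.05, with a permutation test (100000 sign changes) as alternative. Wilson intervals are 95%. GC content and CpG ratio were taken over the whole peak, and motif cores were searched in its central 200 bp. Scripts ran in Python 3.11.15 (numpy 2.4.6, scipy 1.17.1) and were tested on simulated data. The genes named are those of 4 lists, the 5 widest peaks, the 5 shortest distances per side, the 10 closest pairs and 3 peaks on each side of the limit. The starts with a GC of at least 75% between paired peaks, the genes with 3 peaks and the printed sequences were chosen after their values were seen. 1 gene counted in the lists is not reported here. The members and lists were chosen with earlier results of these data known. Comparisons within CpG-poor peaks, of CpG-rich with CpG-poor flanking peaks, of the gap with the far side and the RefSeq starts were added after the data were seen. The planned comparison of GSI with DMSO was not made, since the list holds no values per library.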

Additional observations from a re-analysis of the deposited data

How the results depend on the processing

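Of 43 results, 235 alternative values were computed, of which 200 kept direction and side of the threshold (counts within 1.5 times). The number of flanking peaks was 479 with a limit of 500 bp, 1771 with 2 kb, 493 with peaks of at least 500 bp and 599 with starts of manual annotation. With a limit of 500 bp the covered share differed by -5.31 points, upstream minus downstream (exact sign test, p = 0.0490), the CpG ratio of upstream minus downstream peaks was 0.00292, and the GC difference of uncovered minus covered was 1.01 points. That GC difference was 1.51 with gaps of at most 200 bp joined and 2.40 with peaks of at least 500 bp, both no longer past the threshold. With peaks of at least 500 bp the upstream share was 48.9%, the upstream minus downstream differences were 0.0721 points for GC, 0.0121 for the CpG ratio and 4.23 points for the CpG-rich share, and CCAAT was -0.728 points from distal peaks. None of these passed. The permutation test brought past the threshold the upstream minus downstream GC difference (-1.62), the TATAAA share (0.958 points) and the share of most 5′ starts (8.70 points). Searching the whole peak turned the difference from start-covering peaks to -0.0227 points for CAGCTG, -6.47 for AGGAAG and -12.3 for TGGGAA. Only the last of these passed (exact sign test, adjusted p = 0.000349), as did CCAAT at -14.6 points, while AGGAAG against distal peaks (-2.33) no longer did. CpG-poor peaks alone gave -3.04 for TGGGAA. Also no longer past the threshold were AGGAAG against start-covering peaks with a limit of 500 bp (7.85 points) and, with peaks of at least 500 bp, TGTGGT against start-covering (9.52 points) and distal peaks (-7.89 points). The cause was not tested. The number of motif comparisons past the threshold was 9 of 32 and ranged from 7 to 12 over the alternatives. The alternative with uncovered starts only held fewer comparisons, since it has no covered starts to compare.

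No paired analysis was possible because values per library were not part of the data used here, and fits with a replicate block or without a replicate were not run for the same reason.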
